A study of Mus musculus with 4 samples.

Results

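The wells described here, labelled gut lamina propria fibroblasts after 3 genes, were 136 wells of sorted mouse tumour stroma in which the transcripts of Adamdec1, Wnt4 and Tcf21 together made up at least 5 of every 10000 transcripts. They were taken from 740 wells that held at least 1000 transcripts, spike-in RNA left out, of which at most 30% were mitochondrial. Wells with Cxcl13 at 5 or more per 10000, or with at least 2 transcripts of Kcnn3 and P2ry1 together, were left out of the members. The wells came from 4 untreated APTKA tumours, a label that the sources used here do not expand, grown orthotopically in the colon of female C57BL6J mice. All 4 tumours form 1 group, with no control tissue and no second treatment, and the labels do not give the age of the mice. Each tumour gave 1 plate of 384 wells, and the cells were sorted as cancer-associated fibroblasts and read by SORT-seq, a plate method that adds a well barcode and a molecule barcode to each transcript. The members were set against 529 other kept wells of the same plates in which Dcn and Col1a1, the fibroblast genes for decorin and a collagen I chain, together made up at least 30 per 10000.

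In the healthy colon, fibroblasts differ by depth. Those of the lamina propria, the loose tissue between the crypts, are known for the secreted protease Adamdec1. Telocytes under the surface epithelium secrete BMP ligands and non-canonical WNT ligands, which favour differentiation, and trophocytes below the crypts secrete BMP antagonists and R-spondins, which keep stem cells dividing. Adventitial fibroblasts around vessels express Pi16 and Cd34. Wnt4 is a WNT ligand. Tcf21 is a basic helix-loop-helix transcription factor of the mesenchyme of inner organs, of the class that binds E-box sequences.

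Because 1 of the 3 defining genes encodes an E-box factor, the promoters of Tcf21 and of 2 genes that were higher in the members, Procr and Foxf2, are shown. Both were picked because their promoters hold the motif. They were 2 of the 9 genes with a match among 35 named genes that were higher, while the promoters of Agt, Ces1g, Scube1 and Bmp5 held none. The sequences are from RefSeq (GRCm38.p6) and run from 250 bases before to 50 bases after a transcription start on the strand of the gene, and capitals mark CAGCTG, an E-box that reads the same on both strands. Tcf21 lies on chr10:22820094-22820393 (minus strand), Procr on chr2:155750967-155751266 (plus strand) and Foxf2 on chr13:31625566-31625865 (plus strand).
Tcf21: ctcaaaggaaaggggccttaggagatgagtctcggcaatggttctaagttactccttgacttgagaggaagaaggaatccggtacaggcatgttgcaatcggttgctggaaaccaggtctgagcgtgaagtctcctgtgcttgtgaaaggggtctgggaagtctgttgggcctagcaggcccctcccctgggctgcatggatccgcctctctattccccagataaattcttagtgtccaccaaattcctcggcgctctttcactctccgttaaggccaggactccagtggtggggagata
Procr: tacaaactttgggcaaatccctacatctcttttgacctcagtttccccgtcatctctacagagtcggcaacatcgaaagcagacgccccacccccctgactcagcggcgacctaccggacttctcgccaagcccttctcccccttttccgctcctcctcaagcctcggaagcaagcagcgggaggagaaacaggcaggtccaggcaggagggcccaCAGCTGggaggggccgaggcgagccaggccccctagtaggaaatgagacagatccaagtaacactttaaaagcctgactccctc
Foxf2: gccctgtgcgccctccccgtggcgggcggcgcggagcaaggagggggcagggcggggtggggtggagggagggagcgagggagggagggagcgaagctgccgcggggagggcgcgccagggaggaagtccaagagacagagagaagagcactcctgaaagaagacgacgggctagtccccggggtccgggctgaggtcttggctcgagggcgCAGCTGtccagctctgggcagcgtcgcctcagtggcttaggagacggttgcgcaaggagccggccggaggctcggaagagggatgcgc
The Tcf21 window held no match. The match began 34 bases before the start in Procr and 38 bases before it in Foxf2. CAGCTG was present in the promoters of 18.3% of 27025 genes with a RefSeq entry. The share was 20.9% of 163 genes that were higher in the members, 26.8% of 183 that were lower and 17.3% of the 5445 fitted genes with an entry. The differences between these shares were not tested. A gene counted if any of its promoters held a match, so genes with several entries could match more easily. A match is a description of the letters and was not tested against binding.

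The 4 plates held 612734, 3165550, 2805112 and 2727191 transcripts in tumours 1 to 4. Tumour 1 stood apart, with spike-in RNA at 44.0% of its transcripts with spike-ins counted in, against 5.54% to 8.59% in the others, with a median mitochondrial share of 14.4% in its kept wells, against 5.26% to 6.15%, and with a sequencing run of its own by the deposited names. It kept 43 wells, against 204 to 250 in tumours 2 to 4. The same 384 well labels recur on each plate and stand for positions, not for shared cells. The members made up 17 of 43 kept wells in tumour 1 (39.5%, 95% exact Clopper-Pearson interval 24.98% to 55.6%) and 40 of 250 in tumour 2 (16.0%, 11.7% to 21.1%). In tumour 3 they were 51 of 243 (20.99%, 16.0% to 26.7%) and in tumour 4 they were 28 of 204 (13.7%, 9.32% to 19.2%). The mean share was 22.6% ± 11.7 (SD, n = 4 tumours), and 16.9% without tumour 1. These intervals cover counting error only. A member held a median of 8018 transcripts, against 9764 in the other fibroblast wells.

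The levels of the rule genes describe how the members were chosen and were not tested. Adamdec1 (chr14:68563380-68582095, minus strand) had 23.5, 21.7, 23.4 and 27.8 transcripts per 10000 in the members of tumours 1 to 4, against 10.9, 0.317, 0.842 and 0.298 in the other fibroblast wells. Wnt4 (chr4:137277489-137299726, plus strand) had 2.42, 3.60, 5.85 and 5.03 per 10000 in the members, against 1.05, 0.176, 0.375 and 0.123. Tcf21 (chr10:22817281-22820174, minus strand) had 10.4, 3.46, 3.45 and 3.98, against 5.41, 0.334, 1.08 and 0.768. Coordinates of genes are from GENCODE on GRCm38. In the members Adamdec1 was even across tumours, while Wnt4 was lowest and Tcf21 highest in tumour 1. The comparison wells of tumour 1 were high in all 3 genes. Among them was 1 excluded well with 53796 transcripts, Adamdec1 at 38.1 per 10000 and 9.01 transcripts of Kcnn3 and P2ry1. It gave 26.8% of their summed transcripts, and its part in the levels of the 3 genes was not tested.

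The defining genes did not mark the same wells equally. Adamdec1 was detected in 114 of the 136 members, Tcf21 in 104 and Wnt4 in 95, and all 3 were detected together in 72. Another 17 wells had Adamdec1 and Wnt4, 14 had Adamdec1 and Tcf21, and 2 had Wnt4 and Tcf21. Adamdec1 was the only one of the 3 in 11 wells, Wnt4 in 4 and Tcf21 in 16. The median well had 14.2 Adamdec1 transcripts per 10000, 2.31 of Wnt4 and 3.27 of Tcf21, and the highest wells reached 118, 32.3 and 20.7. A member held between 1 and 253 transcripts of these genes (median 20.5): 8 members qualified with 1 transcript and 15 with fewer than 3. Of 175 kept wells at or above the threshold, 18 were left out for Cxcl13 and 21 for Kcnn3 and P2ry1, which mark interstitial cells of the muscle layer. Just inside the threshold, 7 members lay between 5 and 6 per 10000, the lowest at 5.06. Just outside it, 18 kept wells lay between 4 and 5 per 10000, the highest at 4.97.

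**Figure D1:**
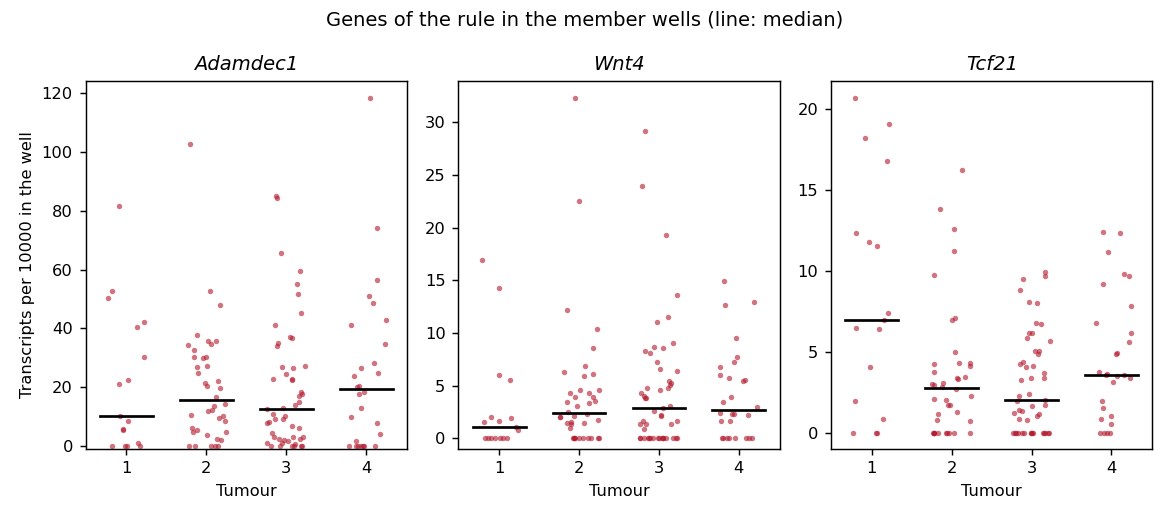
Transcripts per 10000 of Adamdec1, Wnt4 and Tcf21 in each of the 136 member wells, by tumour, with the median as a line. Adamdec1 reached 118 per 10000 in 1 well and was undetected in others, and the Tcf21 median was highest in tumour 1.

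The label did not hold for every well, and markers of other cells passed 30 per 10000 in 18 members. The wells were grouped by levels seen in these data, so the groups are descriptive and were not tested. Smooth muscle markers made up at least 30 per 10000 in 8 members, with Acta2, smooth muscle actin, at 156 per 10000 and Myh11, smooth muscle myosin, at 50.2. Another 7 members held at least 30 per 10000 of markers of interstitial cells of Cajal, the pacemaker cells of the gut, with Kit at 46.3 and Ano1 at 35.0 per 10000. In these 7 wells Tcf21 was at 10.8 per 10000, Adamdec1 at 0.189 and Wnt4 at 0, so they had entered through Tcf21. In 3 members of tumour 3 the red cell markers passed 30 per 10000. The summed smooth muscle markers were at 36.3, 8.86, 7.20 and 8.41 per 10000 in the members of tumours 1 to 4, against 58.5, 5.06, 4.98 and 5.10 in the other fibroblast wells. The epithelial, immune and endothelial lists summed to at most 0.393 per 10000 in the members of any tumour, with 8 of 10 epithelial, 7 of 11 immune and 3 of 10 endothelial markers at 0. Dcn, at 76.0, 66.5, 78.4 and 71.2 per 10000, and Col1a1, at 36.1, 52.7, 91.4 and 63.3 per 10000, were abundant in the members. In 9 members Dcn and Col1a1 together stayed under 30 per 10000.

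The comparison with the other fibroblast wells asks what else distinguishes the members in the same tumours. Counts were summed per tumour and class and tested with edgeR's quasi-likelihood test, each tumour being a block. Benjamini-Hochberg adjustment covered every gene fitted except the genes of the rule, Dcn and Col1a1, which got no test. Nothing in the labels ties the 4 tumours to different animals, so the p-values measure the spread between these 4 plates. Of 7208 genes tested, 497 (6.9%) passed an adjusted p of 0.05, of which 233 were higher in the members (3.23%) and 264 were lower (3.66%). The median log2 fold change over all genes tested was -0.001. Without tumour 1 the count was 409 higher and 466 lower, and 232 of the 233 and 263 of the 264 genes were among them. None of the 98 genes chosen by size of change or by list lost its call without tumour 1. The count in all was 281 without tumour 2, 183 without tumour 3, 156 without tumour 4 and 208 without the tumour block, and in none of these was a gene called in the opposite direction. Where groups are said below not to overlap, this describes genes already called. The share of all genes without overlap is not given here, so it adds no support to a call.

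Agt, Ces1g and Scube1 were taken as markers beside the 3 defining genes with earlier results of these data known. Their p-values are therefore no independent check of them as markers. All 3 were higher in the members in tumours 2 to 4 and not in tumour 1. They did not mark every member: Agt was detected in 40 of the 136, Ces1g in 29 and Scube1 in 85. The median member had 0 of Agt and of Ces1g. Agt (chr8:124556534-124569706, minus strand) encodes angiotensinogen, the precursor of angiotensin. It had 0.589, 0.684, 1.49 and 1.97 transcripts per 10000 in the members of tumours 1 to 4, against 0.948, 0.0179, 0.250 and 0.0878 in the other fibroblast wells. The 2 groups overlapped only through tumour 1, and the log2 fold change was 2.86 ± 0.62 (SE, edgeR adjusted p = 0.0172). Ces1g (chr8:93302369-93337308, minus strand) is a carboxylesterase. It had 0.0655, 0.756, 1.43 and 0.298 per 10000 in the members, against 0.299, 0.0179, 0.125 and 0.0439 in the others. It was lower in the members of tumour 1 and higher in the other 3, and the log2 fold change was 3.21 ± 0.63 (SE, edgeR adjusted p = 0.010). Scube1 (chr15:83604999-83725021, minus strand) encodes a secreted and cell-surface protein with EGF-like domains. It had 2.29, 2.45, 2.02 and 1.86 per 10000 in the members, against 2.70, 0.197, 0.396 and 0.368 in the others. The members were level across the tumours and the comparison wells of tumour 1 were high, and the log2 fold change was 2.01 ± 0.45 (SE, edgeR adjusted p = 0.0197).

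These 3 calls rested on several tumours. Without tumour 1 the log2 fold change was 3.58 for Agt, 3.69 for Ces1g and 2.64 for Scube1, with edgeR adjusted p-values of 9.48e-05, 8.90e-05 and 4.59e-05. The Agt call was lost without tumour 3 (edgeR adjusted p = 0.134) and without tumour 4 (0.193). That of Ces1g was lost without tumour 4 (0.0570) and could not be fitted without tumour 3. That of Scube1 was lost without tumour 2 (0.0752), tumour 3 (0.155) or tumour 4 (0.156). With the rule's exclusions applied to the comparison wells too, Agt in the comparison wells of tumour 1 was at 0.248 per 10000 and its log2 fold change was 3.70. Agt was detected in 29.4% of the members, in 5.10% of the other fibroblast wells and in 8% of the 75 kept wells low in Dcn and Col1a1. After each well was thinned to 2000 transcripts, which left 123, 495 and 64 wells, the shares were 16.3%, 2.42% and 3.13%. For Ces1g they were 21.3%, 3.21% and 1.33% before thinning and 8.94%, 0.808% and 0% after it. For Scube1 they were 62.5%, 23.8% and 16.0% before thinning and 34.1%, 8.48% and 3.13% after it. The low-fibroblast wells had a median of 4383 transcripts and held markers of other cells, and the part of free RNA in these shares was not tested.

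Of 22 genes known from fibroblasts of the gut lamina propria, Agt, Ces1g, Scube1 and Bmp4 among them, 19 were tested, 9 were higher and 2 were lower in the members, with a median log2 fold change of 1.51. Procr, the endothelial protein C receptor, had 1.25, 1.84, 1.51 and 2.91 transcripts per 10000 in the members of tumours 1 to 4, against 0.0996, 0.468, 0.161 and 0.338 in the others. Every member value was above every comparison value, and the log2 fold change was 2.69 ± 0.27 (SE, edgeR adjusted p = 0.000239). Lpl, lipoprotein lipase, had 1.83, 4.79, 6.25 and 6.04 per 10000 in the members, against 0.648, 1.12, 1.398 and 1.44. It was lowest in tumour 1 in both groups and did not overlap, with a log2 fold change of 1.92 (edgeR adjusted p = 0.000239). Edil3, an integrin-binding matrix protein, had 2.23, 1.29, 1.30 and 1.23 per 10000, against 0.797, 0.0897, 0.292 and 0.114, with a log2 fold change of 2.64 (edgeR adjusted p = 0.000750). Hapln1, which links hyaluronan to proteoglycans, and the growth factor Fgf9 were also higher. The 2 that were lower were the secreted WNT antagonist Sfrp1 and the chemokine Ccl11. Sfrp1 had 9.79, 10.2, 8.81 and 10.4 per 10000 in the members, against 15.1, 29.98, 24.1 and 29.3 in the others, with a log2 fold change of -1.39 (edgeR adjusted p = 0.00103). Its members lay within a narrow range in all 4 tumours, below every comparison value. The calls of Fgf9 and Ccl11 were lost with 1 tumour left out, that of Fgf9 without tumour 3 or 4 (edgeR adjusted p up to 0.157) and that of Ccl11 without tumour 2, 3 or 4 (up to 0.155).

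**Figure D2:**
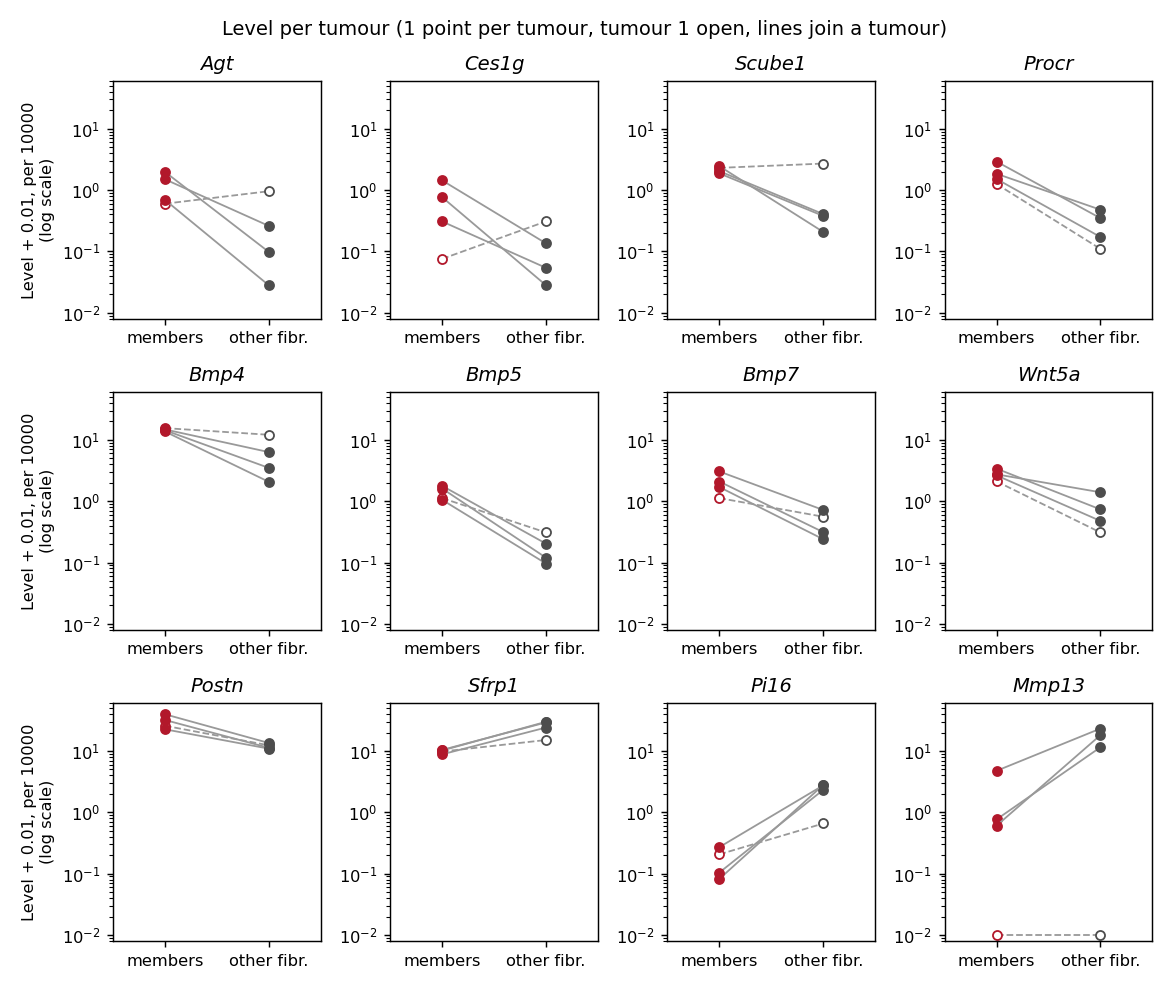
Transcripts per 10000 (plus 0.01, log axis) of 12 genes in the members (left) and the other fibroblast wells (right) of each tumour, with a line per tumour and tumour 1 open and dashed. Agt, Ces1g and Scube1 were higher in the members of tumours 2 to 4 only, while Procr, Bmp5, Bmp7 and Wnt5a were higher in the members of all 4 tumours and Sfrp1 was lower in all 4.

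The ligands Bmp2, Bmp3, Bmp4, Bmp5, Bmp7 and Wnt5a were higher in the members. Of 18 genes known from subepithelial telocytes, 16 were tested, 10 were higher and 2 were lower, with a median log2 fold change of 1.95. Bmp4 (chr14:46383520-46390669, minus strand) was the most abundant BMP ligand, with 15.6, 13.7, 14.8 and 14.4 transcripts per 10000 in the members of tumours 1 to 4, against 12.1, 2.06, 6.31 and 3.48 in the others. The members were level and lay above every comparison value, and the log2 fold change was 1.51 (edgeR adjusted p = 0.0112). The Bmp4 call was lost without tumour 3 (edgeR adjusted p = 0.0615) and without tumour 4 (0.113). Bmp5 had 1.11, 1.04, 1.77 and 1.60 per 10000 in the members, against 0.299, 0.0861, 0.193 and 0.110, with a log2 fold change of 3.24 ± 0.28 (SE, edgeR adjusted p = 0.000156). Bmp7 had 1.11, 1.69, 3.04 and 2.08, against 0.548, 0.230, 0.709 and 0.303, with a log2 fold change of 2.26 (edgeR adjusted p = 0.000453). Neither overlapped between the groups. Bmp2 had 2.43, 4.65, 2.81 and 2.53 per 10000, against 0.499, 0.608, 1.33 and 0.659, with a log2 fold change of 1.92 (edgeR adjusted p = 0.00175). Bmp3 was rare, with 22 counts in all members and 3 in all comparison wells, a ratio of 39.4 per transcript (95% exact counting interval 11.8 to 206), and could not be fitted without tumour 3 or 4.

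Wnt5a, a non-canonical WNT ligand, had 2.10, 2.63, 2.73 and 3.39 transcripts per 10000 in the members of tumours 1 to 4, against 0.299, 0.466, 1.39 and 0.724 in the others. The groups did not overlap, and the log2 fold change was 1.88 (edgeR adjusted p = 0.00175). Wnt5b, the neuregulin Nrg1 and Enho were the other secreted factors of the list that were higher. Of its transcription factors, Sox6 had 0.786, 0.468, 0.282 and 0.707 per 10000 in the members, against 0.0996, 0.00359, 0.0416 and 0.0132, and Foxl1 had 0.131, 0.180, 0.314 and 0.260, against 0.0498, 0.00359, 0.0312 and 0.0351. Both were low in level and did not overlap, with log2 fold changes of 4.28 for Sox6 (edgeR adjusted p = 0.00188) and 3.23 for Foxl1 (0.0121). Foxl1 could not be fitted without tumour 3 or without tumour 4. The 2 lower genes were Frzb, a WNT antagonist, and the chemokine Cxcl14. Of 36 further WNT, BMP and R-spondin partners, 23 were tested and 2 were higher: Wif1, an inhibitor that binds WNT proteins, and Id1, a target of BMP signalling. Against the telocyte-like wells defined below, neither Wif1 nor Id1 passed (log2 fold changes -0.91 and 0.40, edgeR adjusted p = 0.558 and 0.645). Sfrp4, another secreted WNT antagonist, and the ligand Wnt9a were lower. Sfrp4 had 0, 0.288, 1.43 and 0.186 per 10000 in the members, against 0.548, 8.65, 8.35 and 10.5, with a log2 fold change of -4.11 (edgeR adjusted p = 0.000463). The median over these 23 partners was 0.17, and 19 of them passed in neither direction. With 1 tumour left out, the calls of Nrg1, Cxcl14 and Id1 were lost whichever of tumours 2 to 4 was left out (edgeR adjusted p up to 0.213, 0.131 and 0.232). Those of Enho and Frzb were lost without tumour 3 or 4 (up to 0.108 and 0.0937), and those of Wif1 and Wnt5b without tumour 4 (0.0880 and 0.129). Wnt5b could not be fitted without tumour 2 or 3, and Wnt9a could not once any of tumours 2 to 4 was left out.

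Among genes at 0.5 per 10000 or more that moved the same way in every tumour, those with the largest rises were Sox6, Bean1, Sema3f, Kit, Emid1, Casq2, Dnaic1, Bmp5, Syt13, Fgfr2, Ano1 and Cldn1, with log2 fold changes from 4.28 to 2.79. Sema3f, a secreted semaphorin that guides axons and vessels, had 0.851, 1.01, 1.19 and 1.60 transcripts per 10000 in the members of tumours 1 to 4, against 0.349, 0.0825, 0.0677 and 0.0395 in the others (log2 fold change 3.79, edgeR adjusted p = 0.000453). Fgfr2, a receptor for fibroblast growth factors, had 2.49, 2.23, 2.78 and 1.71, against 1.35, 0.143, 0.208 and 0.145 (log2 fold change 3.07, edgeR adjusted p = 0.00105). Emid1, an extracellular matrix protein, had 0.785, 1.33, 1.43 and 2.64, against 0.399, 0.0610, 0.130 and 0.123 (log2 fold change 3.63, edgeR adjusted p = 0.000316). None of these 3 genes overlapped between the groups, which is partly built in, as they were picked for large changes in the same direction. Syt13, a synaptotagmin, had a log2 fold change of 3.15, and its call was lost without tumour 3 (edgeR adjusted p = 0.0701) and without tumour 4 (0.0561). Kit was detected in 7 members, the wells with Cajal markers, and was at 0 in the 118 members without other-cell markers. Ano1 was detected in 16 members, at 35.0 per 10000 in the 7 Cajal wells and at 0.208 in the 34 wells high in Bmp5, Bmp7 and Sox6, 7 of which held it. Neither gene could be fitted once the wells with mural, Cajal or red cell markers were left out of both classes.

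Transcription factors that mark position along the body and the gut changed in both directions. Of 25 such genes, 15 were tested, 5 were higher and 6 were lower in the members, with a median log2 fold change of 0.15. Nkx2-3, a homeobox factor of gut mesenchyme, had 1.83, 1.80, 1.69 and 1.56 transcripts per 10000 in the members of tumours 1 to 4, against 1.69, 0.183, 0.297 and 0.254 in the others, with a log2 fold change of 2.15 (edgeR adjusted p = 0.00649). Pitx1, a homeobox factor of the hind body, had 3.27, 2.70, 3.17 and 3.24, against 2.99, 0.258, 0.599 and 0.430, with a log2 fold change of 2.19 (edgeR adjusted p = 0.00752). In both, the members were even across the tumours, and the comparison wells of tumour 1 lay within their range. Foxf2, a forkhead factor of gut mesenchyme whose promoter is shown above, had 0.851, 1.01, 1.24 and 0.855, against 0.847, 0.118, 0.255 and 0.250, with a log2 fold change of 1.87 (edgeR adjusted p = 0.0103). Foxf1 and Tbx2 were also higher. All 3 calls with values here were lost without tumour 3 or without tumour 4, with edgeR adjusted p-values of 0.0791 and 0.0742 for Nkx2-3, 0.0842 and 0.0884 for Pitx1, and 0.129 and 0.0706 for Foxf2. Those of Foxf1 and Tbx2 were lost whichever of tumours 2 to 4 was left out (edgeR adjusted p up to 0.239 and 0.285). Against the telocyte-like wells defined below, none of Nkx2-3, Pitx1, Foxf2 and Tbx2 passed (edgeR adjusted p = 0.0778, 0.126, 0.551 and 0.948). Foxf2 was at 1.82, 1.08 and 1.82 per 10000 in those wells of tumours 2 to 4 (log2 fold change -0.50).

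Among those that were lower were Prrx1, Meis1, Meis2, Twist1 and Twist2. Prrx1, a homeobox factor of limb and body-wall mesenchyme, had 0.458, 0.288, 0.172 and 0 transcripts per 10000 in the members, against 0.399, 2.16, 2.40 and 2.85 in the others, with a log2 fold change of -3.43 (edgeR adjusted p = 0.00466). It was higher in the members of tumour 1 and far lower in the other 3, and the call was lost without tumour 3 (edgeR adjusted p = 0.0910). Twist1 had 0.262, 0.288, 0.345 and 0.632, against 0.448, 0.987, 1.45 and 1.33, with a log2 fold change of -1.67 (edgeR adjusted p = 0.00290, and 0.0561 without tumour 3). Of 28 Hox genes, 7 were tested, none was higher, and Hoxc10 was lower, a call that edgeR made at an adjusted p of 0.0198. The median over the 7 was 0.14. The calls of Meis1, Meis2 and Twist2 were lost without tumour 3 (edgeR adjusted p = 0.101, 0.0891 and 0.155), and those of Meis2, Twist2 and Hoxc10 without tumour 4 (0.0841, 0.128 and 0.195). Hoxc10 could not be fitted without tumour 3, and without tumour 2 its edgeR adjusted p was 0.0878.

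The largest falls were those of Fst, Mmp9, Angptl7, Penk, Cpxm1, Smoc2, Ctla2a, Ccl19, Il33, Sfrp4, Pi16 and Rgs16, with log2 fold changes from -5.23 to -4.09. Fst, follistatin, which binds activins, had 0, 0, 0 and 0.186 transcripts per 10000 in the members of tumours 1 to 4, against 0.0996, 2.04, 1.02 and 2.07 in the others (edgeR adjusted p = 0.000276). Cpxm1, of the carboxypeptidase family, had 0, 0.324, 0.157 and 0.409, against 0.0498, 5.83, 3.87 and 7.10 (log2 fold change -4.41, edgeR adjusted p = 1.10e-05). Penk, proenkephalin, had 0, 0.0719, 0.0313 and 0.0744, against 0.698, 0.711, 1.18 and 0.904 (log2 fold change -4.43, edgeR adjusted p = 0.000222). Penk did not overlap between the groups, and in Fst and Cpxm1 the comparison wells of tumour 1 were as low as the members of other tumours.

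Adventitial and trophocyte genes were mostly lower in the members or passed in neither direction. Of 20, 15 were tested, 1 was higher and 6 were lower, with a median of -0.75. Pi16, a peptidase inhibitor that marks adventitial fibroblasts, had 0.196, 0.0719, 0.0940 and 0.260 transcripts per 10000 in the members of tumours 1 to 4, against 0.647, 2.79, 2.32 and 2.74 in the others, with a log2 fold change of -4.10 (edgeR adjusted p = 0.000222). C3, the central complement protein, had 11.2, 8.75, 4.92 and 9.55, against 36.7, 22.5, 21.5 and 26.4, with a log2 fold change of -1.76 (edgeR adjusted p = 0.000222). Cd34, a sialomucin of progenitor-type fibroblasts, had 2.10, 1.83, 2.51 and 2.79, against 5.49, 2.76, 6.38 and 5.22, with a log2 fold change of -1.14 (edgeR adjusted p = 0.00348, and 0.0505 without tumour 3). Pi16 and C3 did not overlap, and Cd34 overlapped only in the highest member value. Has1, a hyaluronan synthase, Cd55 and Cd81 were lower too. The 1 that was higher was Efemp1, a fibulin of elastic matrix, at 6.23, 6.95, 5.54 and 5.73 per 10000, against 3.84, 1.77, 2.21 and 1.81 (log2 fold change 1.35, edgeR adjusted p = 0.00235). The calls of Cd55 and Cd81 were lost without tumour 3 or 4 (edgeR adjusted p up to 0.143 and 0.0701).

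Of 24 cytokines and chemokines, 18 were tested, 8 were lower in the members, 1 was higher and 9 passed in neither direction, with a median log2 fold change of -0.68. Il33, an alarmin, had 0, 0.180, 0.0313 and 0.298 transcripts per 10000 in the members of tumours 1 to 4, against 0.498, 2.73, 1.67 and 2.27 in the others, and the groups did not overlap (log2 fold change -4.13, edgeR adjusted p = 0.000222). Il6 had 0.131, 0.324, 0.251 and 0.372, against 0.0498, 3.47, 1.02 and 1.91. It was far lower in tumours 2 to 4 and slightly higher in tumour 1 (log2 fold change -2.55, edgeR adjusted p = 0.00165). Ccl19, a chemokine of lymphoid tissue, Ccl2, Ccl7, Cxcl1, Il11 and Lif were the other genes that were lower. Tnfsf13b, the B cell survival factor BAFF, was higher, at 2.49, 2.19, 2.06 and 2.42 per 10000 in the members, against 1.45, 0.696, 0.875 and 0.896 in the others (log2 fold change 1.22, edgeR adjusted p = 0.00298). Its members were even and above every comparison value. The calls of Ccl2 and Il11 were lost whichever of tumours 2 to 4 was left out (edgeR adjusted p up to 0.193 and 0.412). C3, which was lower, was counted with the adventitial genes. Of 19 other complement genes, 9 were tested and edgeR called none, with 5 of them at an unadjusted p under 0.05, while DESeq2 called 1, C4b.

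Matrix genes of wound-type fibroblasts were called lower more often than higher. Of 28 wound and activated fibroblast genes, 25 were tested, 3 were higher, 10 were lower and 12 passed in neither direction, with a median log2 fold change of -0.93. Mmp13, a collagenase, had 0, 0.755, 4.74 and 0.595 transcripts per 10000 in the members of tumours 1 to 4, against 0, 11.5, 23.2 and 18.2 in the others (log2 fold change -3.66, edgeR adjusted p = 0.000750). It was at 0 in both classes of tumour 1 and lower in the members of the other 3. Mmp9, a gelatinase, had 3 counts in all members and 708 in the comparison wells, which were 43.9 times higher per transcript (95% exact counting interval 14.96 to 213). The interval covers counting error only. Of the 708 counts, 464 lay in the trophocyte-like wells defined below, at 26.9 per 10000 in tumour 2 and 0 in tumours 3 and 4. Without tumour 2, Mmp9 was still lower in the members (log2 fold change -8.17, edgeR adjusted p = 0.0044). Lrrc15 had 3 and 774 counts, a level 48.0 times higher in the comparison wells (16.4 to 233). Timp1, an inhibitor of these proteases, had 0.720, 1.44, 1.33 and 2.42 per 10000, against 0.448, 11.9, 5.69 and 8.72, and its call (edgeR adjusted p = 0.00749) was lost without tumour 3 (0.1003) and without tumour 4 (0.0884).

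Postn, the matricellular protein periostin, was higher in the members, at 25.8, 22.6, 32.1 and 39.8 transcripts per 10000 in tumours 1 to 4, against 12.4, 10.9, 11.3 and 13.5 in the others. The groups did not overlap, and the log2 fold change was 1.21 ± 0.15 (SE, edgeR adjusted p = 0.000750). Fn1, fibronectin, had 43.0, 34.9, 53.5 and 37.7 per 10000, against 23.6, 24.5, 15.1 and 18.1, also without overlap (log2 fold change 0.97, edgeR adjusted p = 0.0132). The Fn1 call was lost without tumour 3 (edgeR adjusted p = 0.0630) and without tumour 4 (0.102). Neither gene passed against the telocyte-like or the trophocyte-like wells defined below. The log2 fold changes there were 1.13 and 1.07 for Postn (edgeR adjusted p = 0.195 and 0.431). For Fn1 they were 0.98 and 0.03 (edgeR adjusted p = 0.0651 and 0.989). Of 20 basement membrane genes, 16 were tested and 3 were higher: the collagen IV chains Col4a5 and Col4a6 and the laminin chain Lamb1. Col4a5 had 0.458, 0.900, 0.753 and 1.04 per 10000, against 0.0996, 0.0502, 0.245 and 0.101 (log2 fold change 2.72, edgeR adjusted p = 0.00188). No basement membrane gene was lower, and the list's median was 0.48. Of 26 other collagen and collagen enzyme genes, 24 were tested, 2 were higher and 7 were lower, with a median of -0.46. Pcolce2, an enhancer of procollagen processing, fell most, at 0, 0.108, 0.110 and 0, against 1.10, 0.675, 1.04 and 0.720 (log2 fold change -3.71, edgeR adjusted p = 0.000599). Ogn and Vcan were higher and Lum and Tnfaip6 lower among 11 tested proteoglycan and hyaluronan genes, with a median of -0.01. With 1 tumour left out, the calls of Lamb1, Vcan and Tnfaip6 were lost whichever of tumours 2 to 4 was left out (edgeR adjusted p up to 0.179, 0.218 and 0.310). That of Ogn was lost without tumour 2 or 4 (up to 0.251), that of Lum without tumour 3 or 4 (up to 0.0910) and that of Col4a6 without tumour 4 (0.0624), and Col4a6 could not be fitted without tumour 3.

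**Figure D3:**
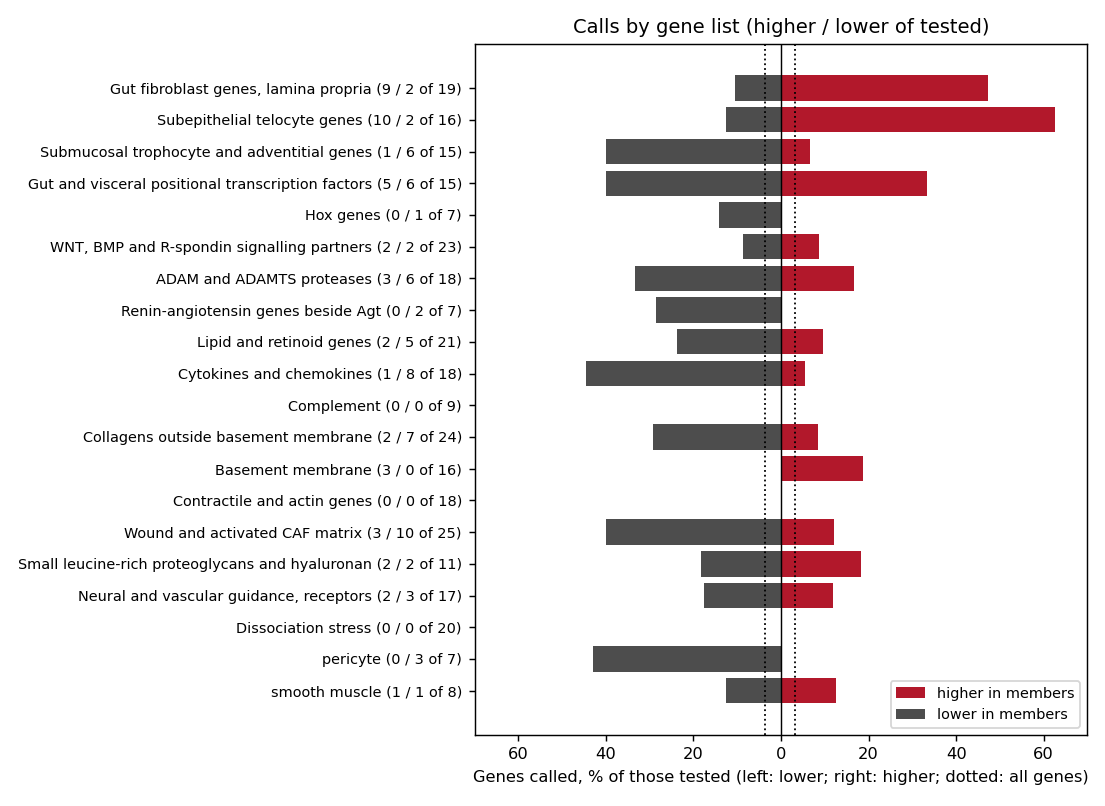
Percent of the tested genes of each list that were higher (bars to the right) or lower (bars to the left) in the members than in the other fibroblast wells at an edgeR adjusted p under 0.05, with dotted lines at the shares over all genes, 3.23% higher and 3.66% lower. The telocyte and lamina propria lists extend furthest to the right among the fibroblast lists, and the cytokine, wound, adventitial and positional lists extend to the left.

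Lipid and retinoid genes moved in both directions. Of 32, 21 were tested, 2 were higher and 5 were lower, with a median log2 fold change of -0.20. Aldh1a1, which makes retinoic acid, had 0.851, 1.26, 1.10 and 1.08 transcripts per 10000 in the members of tumours 1 to 4, against 0.199, 0.190, 0.380 and 0.254 in the others (log2 fold change 1.98, edgeR adjusted p = 0.000768). It did not overlap between the groups. Rdh10 was the other gene that was higher, and Stra6, Cyp26b1, Apod and Fabp4 were among those that were lower. Of 18 ADAM and ADAMTS proteases and ADAMTS-like genes tested, the family of Adamdec1 in the wider sense, 3 were higher and 6 were lower. Adam23 had 0.589, 0.827, 0.721 and 0.707 per 10000, against 0.249, 0.0861, 0.0625 and 0.132 (log2 fold change 2.74, edgeR adjusted p = 0.000768), and Adamts15 had 0.0654, 0, 0.0627 and 0.112, against 0.897, 0.484, 0.463 and 0.522 (log2 fold change -3.22, edgeR adjusted p = 0.00135). Of the renin-angiotensin genes beside Agt, 7 were tested, none was higher, and the receptor Agtr2 and the converting enzyme Ace were lower. The Ace call (edgeR adjusted p = 0.0112) was lost without tumour 2 (0.0879), tumour 3 (0.0822) or tumour 4 (0.0510), that of Rdh10 without tumour 3 or 4 (up to 0.261) and that of Cyp26b1 without tumour 4 (0.0608). Agtr2 could not be fitted without tumour 3 or 4.

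Some lists held few or no calls. None of 18 contractile genes, 20 dissociation stress genes and 8 cell cycle genes tested by edgeR passed. At an unadjusted p under 0.05 there were 6 contractile, 5 stress and 0 cell cycle genes, and DESeq2 called none of the 3 lists' genes. The dissociation stress genes summed to 58.0, 198, 174 and 216 transcripts per 10000 in the members of tumours 1 to 4, against 30.6, 137, 200 and 177 in the other fibroblast wells, so tumour 1 was low in both classes. Of 17 guidance genes tested, Sema3f and Robo2 were higher and Slit2, Slit3 and Angptl4 lower. Of the markers of other cells, 3 of 7 tested pericyte genes (Notch3, Mcam and Abcc9) were lower, 1 of 8 smooth muscle genes was higher (Synm) and 1 lower (Des), and all 3 Cajal genes tested (Kit, Ano1 and Etv1) were higher. Pericyte markers reached 30 per 10000 in 0 of the 136 members and in 17 of the 529 other fibroblast wells. Once the wells with mural, Cajal or red cell markers were left out of both classes, Notch3, Mcam and Etv1 could not be fitted, and Abcc9 stayed lower (log2 fold change -2.55, edgeR adjusted p = 0.000372). The calls of Robo2, Slit3, Mcam and Synm were lost whichever of tumours 2 to 4 was left out (edgeR adjusted p up to 0.137, 0.198, 0.142 and 0.1901). Those of Notch3 and Des were lost without tumour 3 or 4 (up to 0.0726 and 0.154). That of Angptl4 was lost without tumour 2 or 4 (up to 0.179) and that of Etv1 without tumour 4 (0.193), and Slit2 could not be fitted without tumour 3.

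The members were not uniform. Apart from the 18 wells with markers of other cells, 34 members held Bmp5, Bmp7 and Sox6 at 5 or more per 10000 in all (2, 7, 18 and 7 wells in tumours 1 to 4). Another 57 held Adamdec1 at 5 or more and less than 5 of those genes in all (8, 22, 14 and 13 wells), and 27 met neither. The 57 wells were not free of those genes, since Bmp5 was detected in 26 of them, Bmp7 in 29 and Sox6 in 2. The 34 wells met the level of Bmp5, Bmp7 and Sox6 that defines the telocyte-like wells below. These groups were drawn after values were seen and were not tested. The 34 wells were highest in Adamdec1, at 43.4 per 10000, against 19.8 in the 57 wells and 1.95 in the 27. Tcf21 was lowest in the 34 wells, at 1.95 per 10000, against 5.90 in the 57 and 4.33 in the 27. The 34 wells also held more Procr (4.06 per 10000, against 0.857 and 0.173), Col4a5 (1.81, against 0.247 and 0.0865) and Acta2 (19.9, against 10.4 and 8.34). Cd34 was at 0.873 per 10000 in the 34 wells, 3.29 in the 57 and 4.33 in the 27, and Apoe was at 2.503, 7.88 and 7.81. Edil3 was at 0.790, 2.07 and 1.65, and Fgfr2 at 1.87, 2.99 and 2.64. Scube1 was nearly level, at 1.89, 2.74 and 1.86 per 10000. Over the 118 wells, Spearman's rho of Adamdec1 was 0.59 with the sum of Bmp5, Bmp7 and Sox6, 0.37 with Bmp4, 0.30 with Agt, 0.19 with Wnt4, 0.07 with Scube1 and -0.28 with Tcf21. These describe wells that share plates and differ in depth, and Wnt4 and Tcf21 entered the choice of the wells.

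Without the 34 wells, the other members still differed from the other fibroblast wells in 124 genes that were higher and 177 that were lower, of which 112 and 156 were among the calls over all members. Scube1 had a log2 fold change of 2.10 (edgeR adjusted p = 0.0220) in that comparison. Bmp5 is counted among the 124 but took part in drawing this split, so its change there is not read as a test. The calls of Agt and Ces1g were lost in that comparison (edgeR adjusted p = 0.0557 and 0.0687), at log2 fold changes of 2.57 and 2.96. That of Procr was lost too (0.96, edgeR adjusted p = 0.274). Of the 98 named genes 83 could be fitted there, of which 65 kept and 18 lost their calls. Casq2 and Ogn were among those lost (edgeR adjusted p = 0.298 and 0.332). Sox6, Bean1, Foxl1, Col4a5 and Col4a6 could not be fitted. Bean1 was at 2.16 per 10000 in the 34 wells, 0.171 in the 57 and 0.130 in the 27, and Col4a6 at 0.873, 0.0190 and 0.

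**Figure D4:**
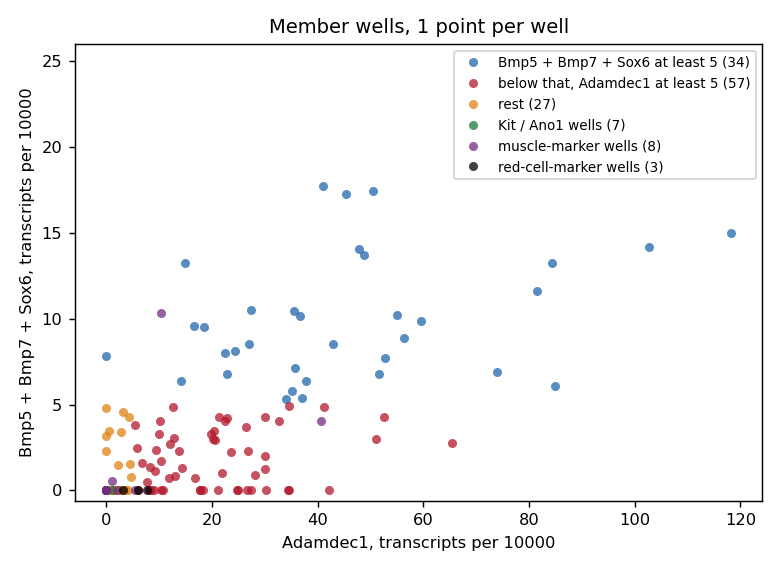
Adamdec1 against the sum of Bmp5, Bmp7 and Sox6 (both in transcripts per 10000) in each member well, coloured by the descriptive groups. The 34 wells with the most Bmp5, Bmp7 and Sox6 reached the highest Adamdec1 levels, and the 7 wells with Cajal markers lie near 0 on both axes.

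Telocyte-like wells were defined as other fibroblast wells with Bmp5, Bmp7 and Sox6 at 5 or more per 10000, so these 3 genes were not tested against them. The name stands for this rule only. Foxl1 was at 0, 0.190 and 0.101 per 10000 in these wells of tumours 2 to 4, against 0.180, 0.314 and 0.260 in the members, and Bmp3 was at 0. Bmp2, Cxcl14 and Pdgfra of the telocyte list were higher in these wells than in the members. There were 6, 11 and 8 such wells in tumours 2 to 4 and none in tumour 1, and the comparison rests on those 3 tumours. Of 4073 genes tested, 262 (6.43%) passed, of which 139 were higher in the members (3.41%) and 123 were lower (3.02%), with a median log2 fold change of 0.021. Of the lamina propria list, 15 genes were tested, 8 were higher and none was lower, with a median of 2.02. Lpl had 4.79, 6.25 and 6.04 transcripts per 10000 in the members of tumours 2 to 4, against 0.404, 0.888 and 0.101 in the telocyte-like wells (log2 fold change 3.54, edgeR adjusted p = 0.00190). Cxcl12, a chemokine of perivascular and mucosal stroma, had 8.93, 7.02 and 7.30, against 0.606, 0.825 and 0.303 (log2 fold change 3.66, edgeR adjusted p = 0.000508). Neither overlapped. Edil3 had no count in the telocyte-like wells and was at least 13.1-fold higher in the members, against a floor of 3 counts over that class.

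Of the telocyte list, 10 genes were tested, none was higher and 3 were lower in the members than in the telocyte-like wells. Foxl1 and Bmp3 could not be fitted here, and Bmp5, Bmp7 and Sox6 were not tested. The members in this comparison included the 34 wells that met the same level of Bmp5, Bmp7 and Sox6. No comparison of the remaining members with the telocyte-like wells was run. Bmp2 had 4.65, 2.81 and 2.53 transcripts per 10000 in the members, against 20.1, 12.3 and 5.88 (log2 fold change -1.81, edgeR adjusted p = 0.00450). Pdgfra, a receptor that is high in telocytes, had 3.24, 5.78 and 5.78, against 9.92, 11.1 and 10.7 (log2 fold change -1.10, edgeR adjusted p = 0.0264, and 0.0753 without tumour 2). Neither overlapped between the classes. Bmp4 had 13.7, 14.8 and 14.4 per 10000 in the members, against 13.8, 16.2 and 17.1, a log2 fold change of -0.10 ± 0.24 (SE, edgeR adjusted p = 0.899). The telocyte-like wells were rich in a collagenase of wound-type fibroblasts: Mmp13 had 0.755, 4.74 and 0.595 per 10000 in the members, against 99.0, 151 and 196 (log2 fold change -6.62, edgeR adjusted p = 0.000474). Of 22 wound genes tested, 10 were lower in the members and 1 was higher. Il11 had 0.432, 1.05 and 0.297 per 10000, against 16.0, 10.5 and 26.7 (log2 fold change -4.73, edgeR adjusted p = 0.000803). Of 11 adventitial and trophocyte genes tested, 7 were higher in the members, 3 passed in neither direction and 1, the BMP antagonist Grem1, was lower (log2 fold change -1.83, edgeR adjusted p = 0.0249, and 0.0692 without tumour 2 and 0.0631 without tumour 4). Among the higher ones was Cd34 at 1.83, 2.51 and 2.79 per 10000, against 0.606, 0.254 and 0.101 (log2 fold change 3.16, edgeR adjusted p = 0.00620). Agt, Ces1g and Scube1 passed in neither direction, with log2 fold changes of 0.95 ± 0.65, 0.65 ± 0.54 and 1.32 ± 0.41 (SE, edgeR adjusted p = 0.514, 0.618 and 0.108). Ces1g had 0.756, 1.43 and 0.298 per 10000 in the members, against 0, 1.21 and 0.202 in the telocyte-like wells. Agt had 0.684, 1.49 and 1.97 per 10000 in the members, against 0, 1.84 and 0.202 in the telocyte-like wells, so the classes overlapped through tumour 3. Without tumour 3 Agt passed (edgeR adjusted p = 0.00236), and without tumour 4 Scube1 passed (0.0190), both higher in the members.

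Trophocyte-like wells were other fibroblast wells with Grem1 and Rspo3 at 5 or more per 10000. Tumours 2 and 3 had 11 and 10 of them and entered the test, which has 1 residual degree of freedom, tumour 4 had 6 and tumour 1 none. Of 3529 genes tested, 88 (2.49%) passed, of which 31 were higher in the members (0.878%) and 57 were lower (1.62%), with a median log2 fold change of 0.004. Procr had 147 counts in the members and 2 in the trophocyte-like wells, a ratio of 25.8 per transcript (95% exact counting interval 7.03 to 215). Lpl had 4.79 and 6.25 transcripts per 10000 in the members of tumours 2 and 3, against 0.695 and 0.469 in the trophocyte-like wells (log2 fold change 3.20, edgeR adjusted p = 0.0113). Sfrp1 had 10.2 and 8.81, against 65.9 and 45.6 (log2 fold change -2.55, edgeR adjusted p = 0.0133). Lpl was higher and Sfrp1 lower in the members of both tumours. Ogn had 19.6 and 8.13 per 10000, against 2.09 and 1.27, and Efemp1 had 6.95 and 5.54, against 1.04 and 0.670, with edgeR adjusted p-values of 0.0113 for each. Il33 had 0.180 and 0.0313, against 3.78 and 2.22 (log2 fold change -5.05, edgeR adjusted p = 0.00791), and Prrx1 had 0.288 and 0.172, against 2.38 and 2.82 (log2 fold change -3.60, edgeR adjusted p = 0.0113). Of 12 cytokines and chemokines tested, 4 were lower in the members, and of 22 wound genes 6 were lower, with none higher in either list. Agt and Scube1 passed in neither direction, with edgeR adjusted p-values of 0.0910 and 0.152. With the 6 trophocyte-like wells of tumour 4 added to the test, both were higher in the members, with log2 fold changes of 2.67 and 1.63 (edgeR adjusted p = 0.00279 and 0.0128). All 3 comparisons share the member wells.

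**Figure D5:**
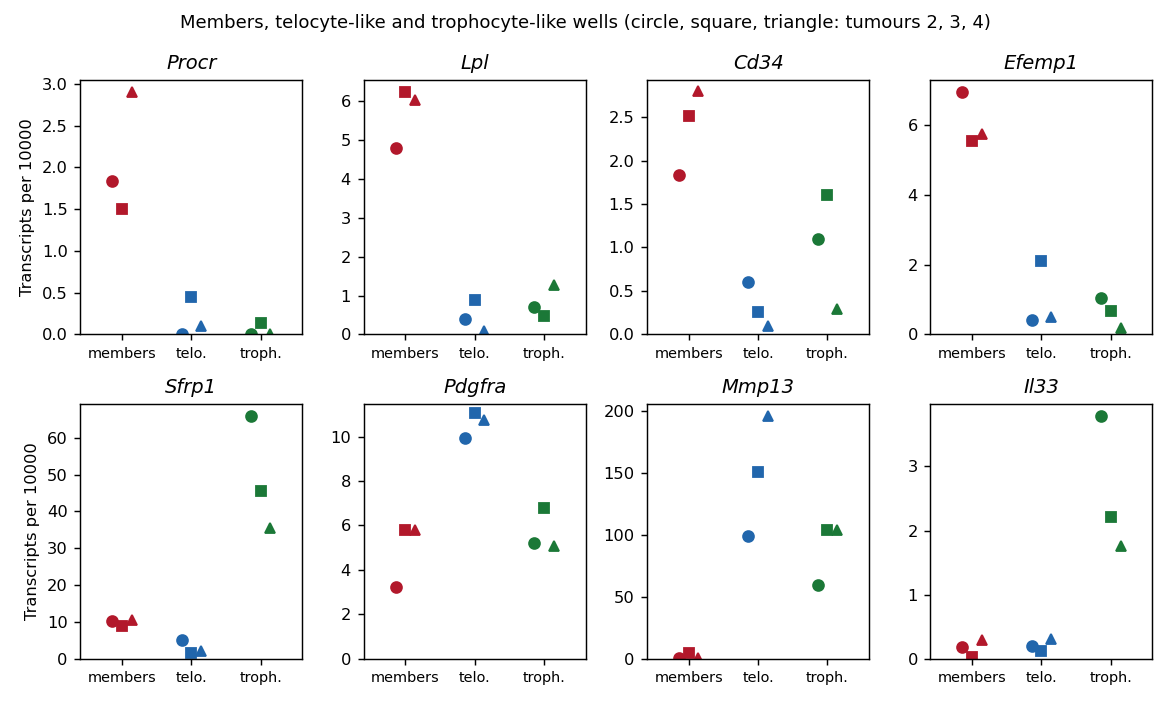
Transcripts per 10000 of 8 genes in the members, the telocyte-like wells and the trophocyte-like wells (left to right) of tumours 2 to 4, a point per tumour. Procr and Lpl were highest in the members, Pdgfra and Mmp13 in the telocyte-like wells, and Sfrp1 and Il33 in the trophocyte-like wells.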

How the data were processed

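Single cells sorted as fibroblasts from 4 tumours were read on 4 plates, by SORT-seq with CEL-Seq2 libraries per the labels' protocols. What the authors deposited for each plate is a table of expected counts, in which whole molecule numbers had been corrected for saturation of 4096 barcodes, as the values themselves show (within 0.00486 of a whole number over 16305 genes). BWA and the mouse build mm10 are named per the submitters' processing notes, with versions and annotation not given in the sources used here. No doublet caller was run, and wells were filtered only by the rule.

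The wells were classed by the rule, and levels are transcripts per 10000 of the summed wells of a tumour. Expected counts were summed per tumour and class, rounded, filtered with filterByExpr, scaled by TMM and fitted with edgeR 4.0.16 (quasi-likelihood, tumour as block) in R 4.3.3, which was tested on simulated data first. Both classes of a pair come from the same tumour and plate, which is where the pairing comes from. Rule genes, Dcn, Col1a1 and the genes that define a comparison class got no test. The planned minimum of 10 wells per class and tumour left 1 tumour for the telocyte-like comparison, so 3 wells were required there. DESeq2 1.42.0 was an alternative. Figures and tables used Python 3.11.15, pandas 2.3.3, scipy 1.17.1 and matplotlib 3.10.9.

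Named genes were Agt, Ces1g and Scube1, the 12 largest changes each way at 0.5 per 10000 or more with 1 direction in all tumours, and up to 4 called genes per list and direction. Bmp4, Bmp7, Bmp2, Wnt5a, Lpl, Edil3, Cd34 and Timp1 and the genes given against telocyte-like and trophocyte-like wells were added after their values were seen. Members, lists and tests were chosen with earlier results of these data known. Spike-in rows were left out of all totals. Some called genes are not reported here by name.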

Additional observations from a re-analysis of the deposited data

Results flagged for a closer look

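In 8 of 99 results over the 4 tumours, 1 tumour's members lay far from the other 3 by Dixon's criterion at the 95% level. Chance gives such a gap in about 1 of 20 groups, and no cause was tested. The members of tumour 1 had Cd81 at 1.244 per 10000, against 0.504 to 0.564 in the other tumours, Adamtsl4 at 2.161, against 0.755 to 0.831, and Lum at 8.002, against 3.37 to 3.64. Those of tumour 2 had Spp1 at 0.3957, against 0 to 0.0470, and Mmp9 at 0.1079, against 0. Those of tumour 3 had Timp3 at 19.63, against 11.5 to 11.95, and Mmp13 at 4.743, against 0 to 0.756. Those of tumour 4 had Fst at 0.1859, against 0. In all of these genes but Adamtsl4 and Timp3 the members were lower than the other fibroblast wells over the 4 tumours.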

How the results depend on the processing

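Against the other fibroblast wells, the 497 calls became 874 with no filter on low counts, 208 without the replicate block, 828 at 15% mitochondrial RNA or less, 213 with wells thinned to 2000 transcripts and 913 against comparison wells with no rule transcript. They became 301 with members low in Bmp5, Bmp7 and Sox6, and 156 (without tumour 4) to 875 (without tumour 1) with 1 tumour left out. The other alternatives, DESeq2 (440) among them, gave 440 to 664. Of 98 named genes, none reversed in any alternative. Their calls were lost in 33 of 81 fits without the block, 21 of 96 without tumour 2, 34 of 86 without tumour 3, 44 of 94 without tumour 4 and 0 of 98 without tumour 1.

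Against telocyte-like wells, 262 calls became 430 with no filter and 59 after thinning, and 177 to 325 with 1 tumour left out. Against trophocyte-like wells, 88 became 324 with no filter, 325 with 3 wells or more per class, 175 with whole molecule numbers, 169 without Rn45s and mitochondrial rows, 143 at 15% mitochondrial RNA or less, 49 at a member threshold of 10, 166 with members also at Dcn and Col1a1 of 30, and 6 after thinning. With 3 wells or more and 1 tumour left out it ran from 88 to 253. The mean share of members stayed between 16.9% and 25.5%. Chosen after seeing the data were the alternatives that left wells with other-cell markers out of both classes, that took members by Bmp5, Bmp7 and Sox6 or by Adamdec1, and that left out 1 tumour at 3 wells or more, and the use of 3 wells as the minimum against telocyte-like wells. The causes were not tested. Tumour 1 gave 43 kept wells and rare genes gave few counts, which limits what could be fitted.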
